A study of Mus musculus with 8 samples.

Results

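The 9 genes Hoxb1 to Hoxb9 of the mouse Hoxb cluster were measured by RNA sequencing in sorted bone marrow progenitors. They were taken by symbol after the transcript estimates of each library had been summed per gene, and all 9 were found among 47311 genes. The cells were Lin-Sca1+Kit+ (LSK) cells, a bone marrow fraction enriched for hematopoietic stem cells and multipotent progenitors. They came from 4 groups of 2 mice each: Asxl2 WT and Asxl2 KO mice that were young (8 to 12 weeks) or old (over 1 year). Asxl2 is a Polycomb-associated chromatin protein; how the allele was made and in which cells it was deleted is not given in the sources used here. Each of 4 litters gave 1 WT and 1 KO mouse, and the labels place litters 1 and 3 in 1 batch (batch 1) and litters 2 and 4 in another of the following year (batch 2). Litters 1 and 2 were old and litters 3 and 4 young, so that each group held 1 mouse per batch. With 2 mice per group the p-values rest on 8 animals, and each litter had a single age, so that the age comparison rests on 2 old against 2 young litters.

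Hox genes encode homeodomain transcription factors that bind DNA with cofactors of the Pbx and Meis families, and their order along the chromosome follows their order of use along the body axis in the embryo. Trithorax-group proteins such as Kmt2a keep Hox clusters active and Polycomb-group proteins keep them silent. In blood, Hoxa genes are the most studied members; of the Hoxb genes, Hoxb4 is known for expanding stem cells when forced on and Hoxb5 as a reporter of long-term repopulating stem cells.

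The 9 members lie on the plus strand of chromosome 11 (mm10, GENCODE vM21 annotation), from Hoxb9 (start 96271457) to Hoxb1 (end 96368256). They run in descending number, Hoxb9, Hoxb8, Hoxb7, Hoxb6, Hoxb5, Hoxb4, Hoxb3, Hoxb2, Hoxb1. Hoxb13, the remaining Hox gene of the cluster, stands apart at 96194316 to 96197447. Each member holds a homeobox, the coding stretch for the 60 residues of the homeodomain. The stretch printed for Hoxb2 and Hoxb6 to Hoxb9 is the part that codes for the recognition helix, residues 42 to 58 of the homeodomain. It is shown because it is the most alike part of the genes, where reads could be hardest to assign. It lies in the last exon in each of them (exon 2 of 2, except exon 3 of 3 in Hoxb6 and Hoxb8). The sequences are read 5′ to 3′ from the GENCODE transcripts. Capitals mark 5 codons that code for the same residues in all 9 members, the motif by which each homeobox was located.
Hoxb2: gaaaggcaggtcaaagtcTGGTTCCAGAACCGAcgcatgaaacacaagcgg
Hoxb6: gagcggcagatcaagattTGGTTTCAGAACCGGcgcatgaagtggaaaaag
Hoxb7: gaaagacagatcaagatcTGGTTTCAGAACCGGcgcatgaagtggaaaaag
Hoxb8: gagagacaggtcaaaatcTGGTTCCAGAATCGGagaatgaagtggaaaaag
Hoxb9: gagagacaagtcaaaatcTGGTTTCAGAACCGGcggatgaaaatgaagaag

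Over the 36 pairs of members, the recognition helices shared 13 to 17 of 17 residues and 35 to 47 of 51 bases. Over the whole homeodomain the pairs were 55.0% to 93.3% identical in protein, lowest for Hoxb1 and Hoxb8 and highest for Hoxb6 and Hoxb7. Hoxb6 and Hoxb7 were also 88.9% identical in homeobox DNA. The longest stretch they share is 37 bases of the homeobox, at chr11:96300830-96300866 in Hoxb6 and chr11:96289526-96289562 in Hoxb7.
Hoxb6 and Hoxb7: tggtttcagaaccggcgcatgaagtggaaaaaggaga

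Even so, few reads could have been confused among the members. Of the 31-base words of each member's transcripts, the only ones found in another member were shared by Hoxb6 with Hoxb7 (7 words) and with Hoxb9. Words shared with any other gene made up 0.07% to 2.55% of the words of 7 members. The exceptions were Hoxb3 (52.7%) and Hoxb2 (26.5%), which share exons with the antisense transcript Hoxb3os. Hoxb3os overlaps 2250 exonic bases of Hoxb3 (52.9%) and 953 of Hoxb2 (27.3%), and Hoxb5os overlaps 100 exonic bases of Hoxb5 (3.59%). The SMART-Seq v4 kit named in the labels does not mark the strand, so in these stretches reads of a gene and of its antisense partner cannot be told apart.

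Estimated counts totalled 45737972 to 80388500 per library. Asxl2 itself was at 23.0 to 30.8 TPM (a transcript abundance per length, scaled to the library's total) in the 4 WT libraries and at 4.64 to 5.63 TPM in the 4 KO libraries, as labelled. All 4 markers of the LSK gate were present in every library, with Cd34 at 476 to 1047 TPM and Kit at 63.4 to 547 TPM. The 5 B-lineage markers summed to 2.93 to 6.66 TPM and the 7 erythroid markers to 88.1 to 1272 TPM. The 8 neutrophil-lineage markers summed to 894 to 3892 TPM, with Mpo, which myeloid progenitors also express, at 815 to 2163 TPM and the late granule gene Ngp at 0.21 to 644 TPM. The 2 libraries of litter 1 stood apart in sex-linked RNA: Xist was at 3.33 and 3.61 TPM there and at most at 0.061 TPM in the other 6, and 4 Y-linked genes summed to 5.39 and 5.6 TPM against 91.2 to 206 TPM. Both of these libraries are old, so sex-linked RNA differs with age in part, and the age estimates of the Hoxb genes are also given without litter 1.

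All 9 members were low, and 2 of them carried most of the cluster's RNA. Hoxb2 had a mean of 9.61 TPM (SD 3.86, n = 8) and Hoxb5 of 4.03 TPM (SD 2.05, n = 8), and together they made up the larger part of the summed Hoxb TPM in every library. Hoxb2 gave 55.3% of that sum on average (range 43.9% to 68.0%) and Hoxb5 23.2% (range 15.01% to 37.7%). Next came Hoxb6 at 1.41 TPM (SD 1.03), Hoxb3 at 0.697 TPM (SD 0.22), Hoxb7 at 0.602 TPM (SD 0.447), Hoxb1 at 0.523 TPM (SD 0.255) and Hoxb4 at 0.403 TPM (SD 0.098). Hoxb9 was at 0.168 TPM (SD 0.083) and Hoxb8 at 0.042 TPM (SD 0.063). The posterior gene Hoxb13, not among the 9 members, had 6 estimated counts in the old KO library of batch 1, 1 in a young KO library and none in the other 6. For scale, the 11 Hoxa genes summed to 187 to 349 TPM and the 9 Hoxb genes to 10.5 to 25.9 TPM.

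Of the 8 steps between neighbours in this order, 4 exceeded the spread between libraries (exact sign-flip permutation test over the 8 libraries on log2(TPM + 0.1), two-sided; adjusted over 8 pairs). Hoxb2 was above Hoxb5, Hoxb5 above Hoxb6, Hoxb4 above Hoxb9 and Hoxb9 above Hoxb8 in 8 of 8 libraries (exact p = 0.0078, the smallest that 8 libraries can give; adjusted p = 0.0156 for each). The 4 steps between neighbours from Hoxb6 to Hoxb4 did not pass, and pairs farther apart were not tested. Hoxb6 was above Hoxb3 in 6 of 8 libraries (adjusted p = 0.10, exact test), and adjusted p-values from the same exact test were 0.24, 0.85 and 0.38 for Hoxb3 over Hoxb7, Hoxb7 over Hoxb1 and Hoxb1 over Hoxb4. The order of levels did not follow the order on the chromosome. The 2 highest genes are separated by Hoxb3 and Hoxb4, both under 1.2 TPM in every library.

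**Figure D1:**
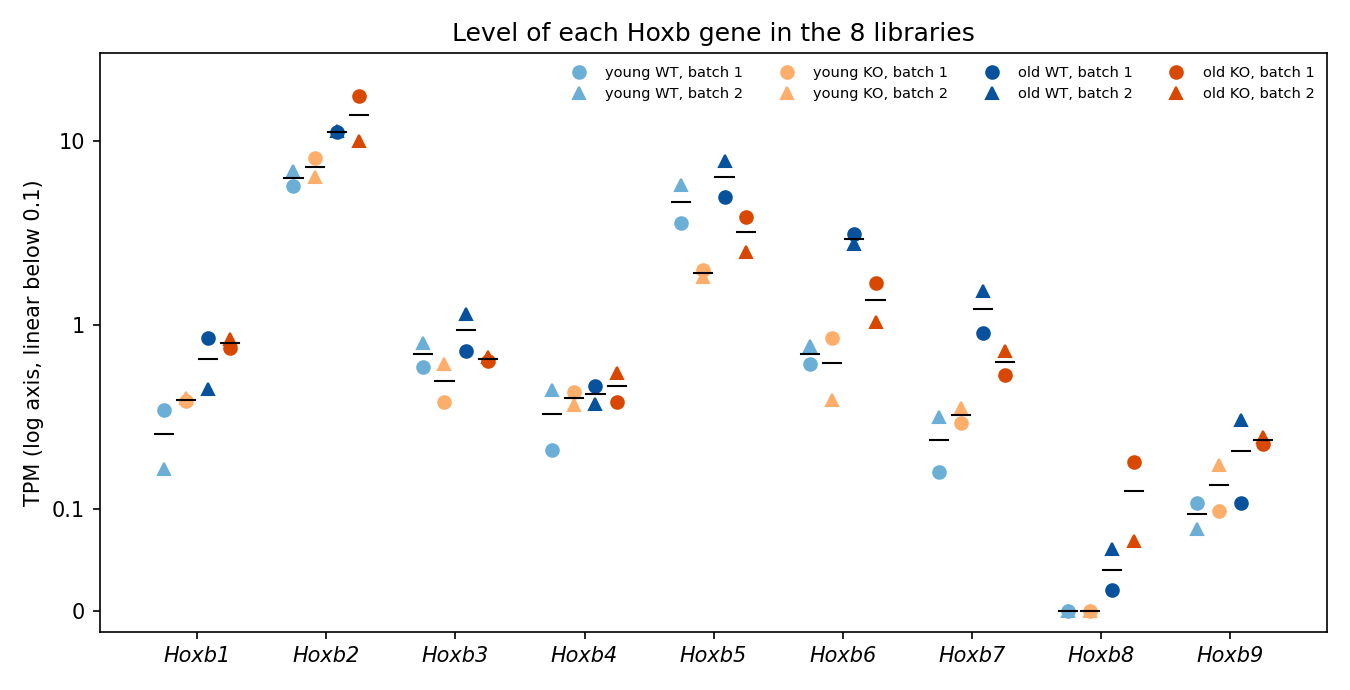
Level of the 9 Hoxb genes, in the order of their numbers, in TPM on a log axis that is linear below 0.1. Each point is 1 library (circles batch 1, triangles batch 2), colours are the 4 groups and black bars are means of 2 mice; Hoxb2 and Hoxb5 are highest and Hoxb8 is at 0 in the 4 young libraries.

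Most of the RNA of the 2 highest members was spliced. The spliced form Hoxb2-201 took 87.0% of the Hoxb2 counts and the intron-retaining form Hoxb2-202 13%. The spliced form Hoxb5-201 took 87.5% of the Hoxb5 counts and the intron-retaining Hoxb5-202 12.6%. Hoxb6 counts were divided between 2 coding transcripts, Hoxb6-201 (55.1%) and Hoxb6-202 (45.0%). Hoxb3 came mainly from Hoxb3-202 (91.4%) and Hoxb9 from Hoxb9-202 (77.4%).

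The first comparison asked how the Hoxb genes differ between old and young LSK cells. Hoxb2, Hoxb6 and Hoxb7 were higher in old mice, and no member was called lower. The test was edgeR's quasi-likelihood test on the estimated counts, with genotype, age and batch in 1 model over the 8 libraries and Benjamini-Hochberg adjustment over 25543 genes. The model treats littermates as independent, and litter cannot be a block for age. A gene was called at an adjusted p under 0.05. Of 8 members tested, 3 were called higher, against 4.34% of all tested genes called higher, 9.61% called lower and 13.9% called in either direction. All 8 estimates were positive, with a median log2 change of 0.90 against 0.15 over all tested genes. That background depends on level, and Hoxb1, Hoxb3, Hoxb4, Hoxb7 and Hoxb9 had means under 1 TPM. Among all tested genes under 1 TPM the median was 1.20 and 87.7% of estimates were positive.

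Hoxb7, a homeodomain factor of the middle of the cluster, had the largest estimate. It was at 0.159 and 0.317 TPM in young WT (batches 1 and 2), 0.294 and 0.354 in young KO, 0.908 and 1.53 in old WT and 0.535 and 0.720 in old KO mice. Every old library was above every young one. The log2 change was 2.21 (SE 0.50, adjusted p = 0.026). These levels rest on few reads, with 7 to 12 estimated counts in the young and 27 to 64 in the old libraries. With the deposited effective lengths as an offset the log2 change was 1.62 (SE 0.56, adjusted p = 0.075 by edgeR).

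Hoxb6 lies next to Hoxb7 and carries the homeodomain most like it. Its levels in the same order were 0.617 and 0.770 TPM in young WT, 0.852 and 0.393 in young KO, 3.13 and 2.76 in old WT and 1.68 and 1.04 in old KO mice. The old libraries did not overlap with the young ones, and old WT mice were highest. The log2 change was 1.60 (SE 0.39, adjusted p = 0.030). In both coding transcripts the old libraries were above the young ones: Hoxb6-201 was at 0.242 to 0.635 TPM in young and 0.675 to 2.56 TPM in old libraries, and Hoxb6-202 at 0.135 to 0.341 and 0.361 to 0.977 TPM.

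Hoxb2, an anterior member known for its role in hindbrain segments, was at 5.70 and 6.89 TPM in young WT, 8.10 and 6.33 in young KO, 11.1 and 11.2 in old WT and 17.6 and 9.92 in old KO mice. All 4 old libraries exceeded all 4 young ones, and the old KO library of batch 1 was the highest. The log2 change was 0.88 (SE 0.24, adjusted p = 0.037). Its antisense partner Hoxb3os had 0.404 to 1.60 TPM in young and 1.38 to 2.57 TPM in old libraries, with a log2 change of 0.82 (SE 0.38, adjusted p = 0.14). Since 27.3% of the exonic bases of Hoxb2 are shared with it, the part of antisense reads in the Hoxb2 value was not tested.

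Hoxb1, the most anterior member, did not pass the test, although its levels did not overlap either. It was at 0.346 and 0.166 TPM in young WT, 0.387 and 0.399 in young KO, 0.851 and 0.450 in old WT and 0.753 and 0.836 in old KO mice (log2 change 1.09, SE 0.40, adjusted p = 0.081). In all, 4 of the 8 tested members (Hoxb1, Hoxb2, Hoxb6, Hoxb7) had all 4 old libraries above all 4 young ones in TPM, a pattern shown by 4.73% of all tested genes. By level, the pattern was shown by 7.78% of genes with a mean under 1 TPM, the band of Hoxb1 and Hoxb7. At 1 to 15 TPM, the band of Hoxb2 and Hoxb6, it was shown by 4.4%. Hoxb8 had the same order outside the test: it had no count in any of the 4 young libraries and 2, 3, 8 and 2 estimated counts in old WT and old KO mice. A count of 0 allows up to 3 counts, or 0.045 to 0.068 TPM in the young libraries, and 3 of the 4 old libraries were at or under 3 counts. Such a difference is not detectable at this depth.

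For the other 4 members the young and old ranges overlapped. Hoxb5 was at 1.83 to 5.74 TPM in young and 2.50 to 7.78 TPM in old mice (log2 change 0.59, SE 0.30, adjusted p = 0.17). Hoxb3 was at 0.381 to 0.801 and 0.639 to 1.15 TPM (log2 change 0.30, SE 0.37, adjusted p = 0.55), with the limit of the exons it shares with Hoxb3os. Hoxb4, the stem cell expansion factor, was at 0.210 to 0.445 and 0.374 to 0.549 TPM (log2 change 0.24, SE 0.40, adjusted p = 0.66). Hoxb9 was at 0.081 to 0.174 and 0.108 to 0.305 TPM (log2 change 0.93, SE 0.63, adjusted p = 0.29).

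**Figure D2:**
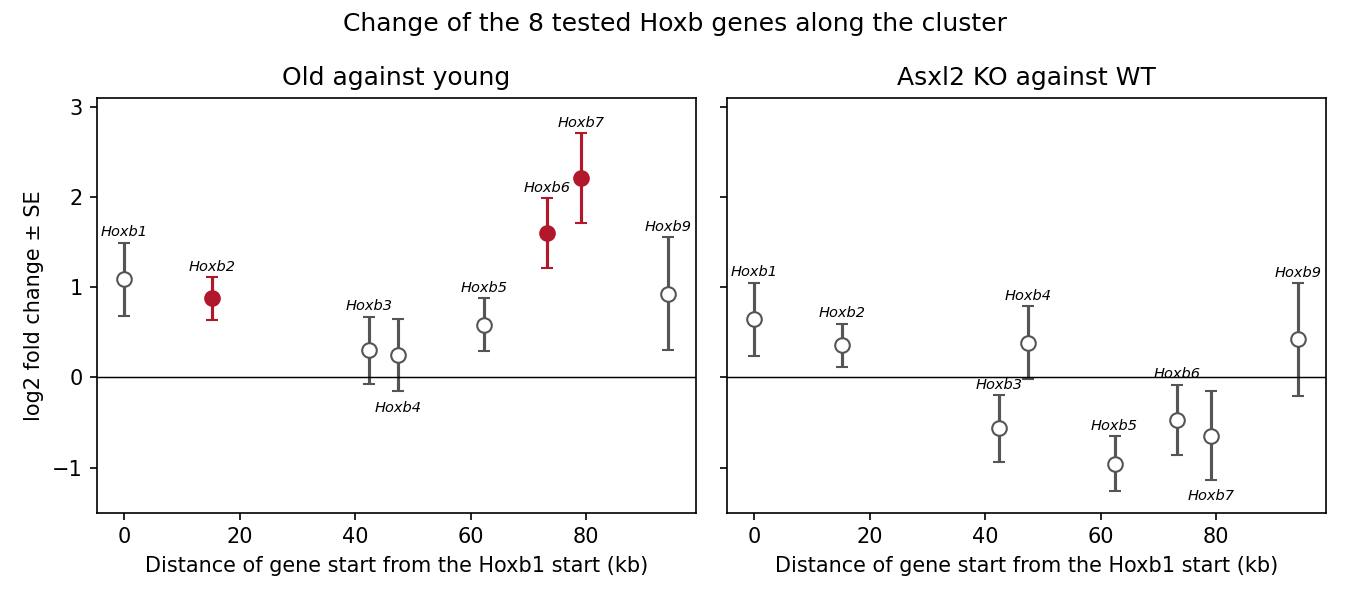
Log2 fold change with its SE (error bars) for the 8 tested Hoxb genes, by the distance of each gene's start from the start of Hoxb1 in kb; left, old against young, right, Asxl2 KO against WT. Filled red points are called; Hoxb2, Hoxb6 and Hoxb7 are called in the left panel and none in the right.

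The summed Hoxb TPM followed the called members. It was 11.3 and 15.2 TPM in young WT, 12.5 and 10.5 in young KO, 22.3 and 25.7 in old WT and 25.9 and 16.5 in old KO mice. All old libraries were above all young ones, with Hoxb2 as the largest part of each sum.

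The 3 calls were not stable over the data, and the calls over all genes were not either. Each batch alone holds 1 mouse a group. Within batch 2, where 7.54% of all tested genes were called, Hoxb6 (log2 change 1.76, adjusted p = 0.0070) and Hoxb7 (2.27, adjusted p = 0.015) were called by edgeR and Hoxb2 was not (0.71, adjusted p = 0.16). Within batch 1 none was called (9.46% of all genes), with log2 changes of 2.13 for Hoxb7, 1.44 for Hoxb6 and 0.96 for Hoxb2. Without litter 1, none was called either (0.173% of all genes) and the log2 changes were 2.34, 1.87 and 0.79. For the members not called over all mice, the log2 changes without litter 1 were 1.30 for Hoxb1, 1.27 for Hoxb9, 0.54 for Hoxb5, 0.23 for Hoxb4 and -0.02 for Hoxb3. With each library left out in turn, 0 to 3 members were called. None was called without the old KO or young KO library of batch 1, or the young WT library of batch 2, fits in which 0.191% to 0.522% of all genes were called. Only 1 was called without the batch 2 library of the old KO mice (1.23% of all genes) or of the old WT mice (16.9%).

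The level of a gene moved with the size of its age estimate over all tested genes. The 9992 genes with a mean under 1 TPM had a median log2 change of 1.20 between old and young, and 87.7% of them had a positive estimate. The 7607 genes at 1 to 15 TPM had a median of -0.03 (48.5% positive), and 5.85% of them were called higher. Old libraries also held more genes with a count, 30865 to 36175 against 26237 to 33258 in young ones. Of the members under 1 TPM, Hoxb7 was above the median of its band and Hoxb1, Hoxb3, Hoxb4 and Hoxb9 were below it. Hoxb2, Hoxb5 and Hoxb6, at 1 to 15 TPM, were all above theirs. With the number of detected genes as a covariate, an alternative added after the data had been seen, none of the members was called and Hoxb7, Hoxb6 and Hoxb2 had log2 changes of 2.74, 2.44 and 1.41.

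**Figure D3:**
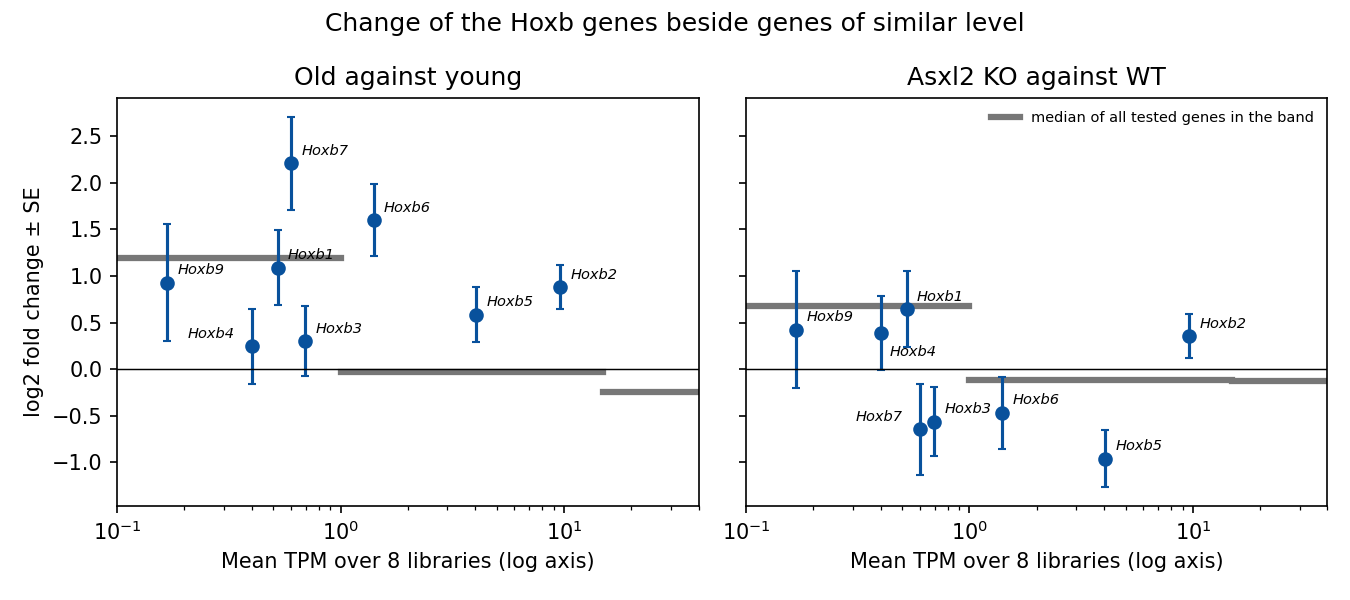
Log2 fold change with its SE of the 8 tested Hoxb genes against their mean TPM over 8 libraries (log axis); left, old against young, right, Asxl2 KO against WT. Grey bars are the medians of all tested genes under 1 TPM, from 1 to 15 TPM and from 15 TPM up; in the left panel Hoxb7, Hoxb6, Hoxb5 and Hoxb2 lie above the bar of their band.

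Markers of some other cells also differed with age. The 5 T and NK cell markers summed to 6.64 to 11.7 TPM in young and 12.3 to 21.5 TPM in old libraries, and 1 of them was called higher (Trac). The 4 megakaryocyte markers summed to 82.8 to 128 TPM in young and 148 to 188 TPM in old libraries, and 1 was called higher (Gp1bb). Erythroid markers were lower in old mice in 5 of 7 genes. For scale, 4.34% of all tested genes were called higher with age and 9.61% lower. Of genes of at least 15 TPM, 22.1% were called lower. Of genes with a mean under 1 TPM, 87.7% had a positive estimate. No T, NK or megakaryocyte marker was at 0 in any library; Cd3e was at 0.016 to 0.313 TPM. Their part in the Hoxb differences was not tested. In bulk RNA, more cells of a type and more RNA per cell cannot be told apart.

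The second comparison asked how the Hoxb genes depend on Asxl2. None of the 8 tested members was called in KO against WT mice by edgeR, against 9.98% of all tested genes, and 1 (Hoxb5) had an unadjusted p under 0.05. DESeq2 called 1, also Hoxb5, and 20.7% of all genes. Of the 8 estimates, 4 were positive and 4 negative, with a median of -0.06 against 0.10 over all tested genes. No member had KO and WT libraries that did not overlap in TPM, a pattern shown by 9.89% of all tested genes.

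Hoxb5, whose reporter marks long-term stem cells, came nearest to a difference. It was at 3.60 and 5.74 TPM in young WT, 2.001 and 1.83 in young KO, 4.93 and 7.78 in old WT and 3.88 and 2.50 in old KO mice. The KO library was below its WT littermate in 4 of 4 litters, with KO to WT ratios of 0.788, 0.321, 0.556 and 0.319 in litters 1 to 4. The 2 ranges met only through the old KO library of batch 1, which lay above the young WT library of batch 1. The log2 change was -0.96 (SE 0.31, adjusted p = 0.066). The adjusted p ranged from 0.00011 to 0.94 over 22 alternatives, and the estimate stayed negative in all 22, from -1.61 to -0.41.

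The 2 batches gave unlike sizes for Hoxb5. In batch 2 the log2 change was -1.61 and in batch 1 -0.42, with adjusted p-values from edgeR of 0.00011 and 0.94. The 2 fits also differed over all genes, with 26.8% called in batch 2 and 0.817% in batch 1, each with 1 mouse a group. The difference between the batches was not tested. The call was also made by DESeq2 (adjusted p = 0.0064, 20.7% of all genes called) and with no filter on low counts (adjusted p = 0.018, 10% of all genes). Limma on log2(TPM + 1) over genes of at least 1 TPM made it too (adjusted p = 0.038, 21.1% of all genes). So did edgeR without the young WT library of batch 1 (adjusted p = 0.048, 17.7% of all genes). As reported over all mice, 9.98% of genes were called. Limma on log2(TPM + 1) with no filter did not call Hoxb5 (-0.87, adjusted p = 0.11, 0.00935% of all genes). Nor did the fit with litter as a replicate block (-0.97, adjusted p = 0.097, 4.55% of all genes). With the number of detected genes as a covariate the log2 change was -0.41 (adjusted p = 0.70).

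Hoxb5 was also set against Hoxb2 within each library, where scaling to a total plays no part. This ratio was chosen after the values had been seen and carries no test. Hoxb5 TPM over Hoxb2 TPM was 0.632 and 0.832 in young WT, 0.442 and 0.692 in old WT, 0.247 and 0.289 in young KO and 0.221 and 0.252 in old KO mice. The 4 KO libraries were all below the 4 WT libraries. Both genes enter this ratio: in litter 1 Hoxb5 had a KO to WT ratio of 0.788 and Hoxb2 of 1.58, and in litter 3 of 0.556 and 1.42. Hoxb5 likewise made up 22.1% to 37.7% of the summed Hoxb TPM in WT and 15.01% to 17.5% in KO mice.

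**Figure D4:**
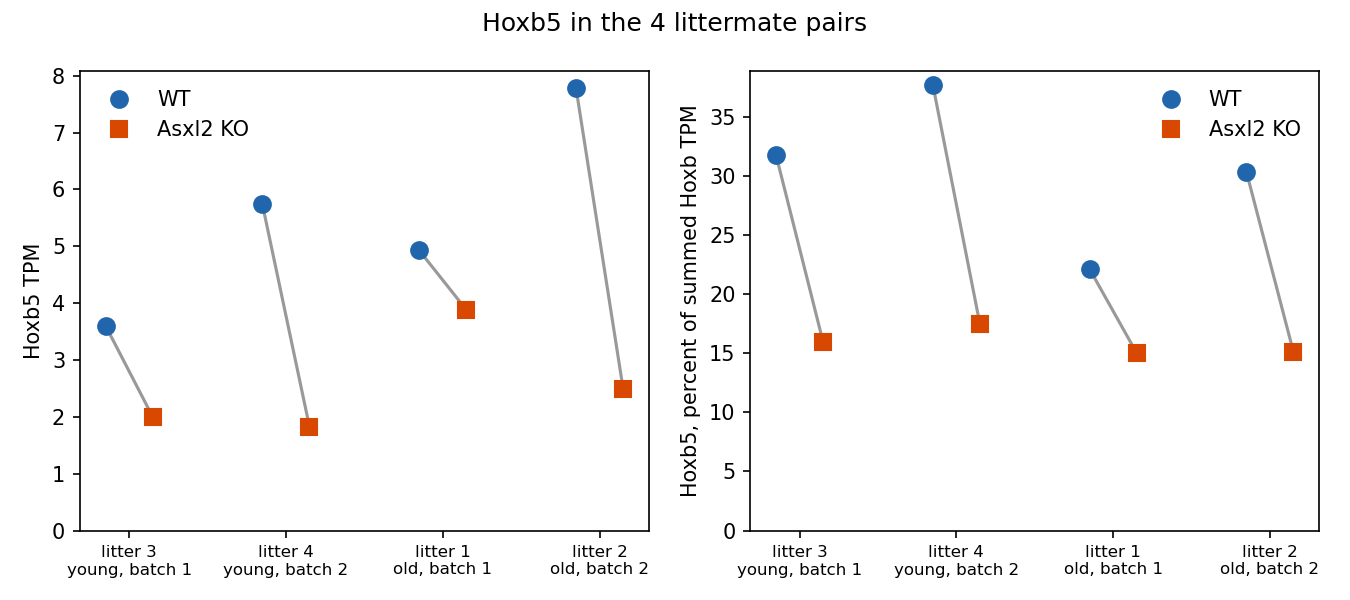
Hoxb5 in the 4 littermate pairs, each with 1 WT (circle) and 1 Asxl2 KO mouse (square) joined by a line; left, TPM, right, Hoxb5 as a percent of the summed TPM of the 9 Hoxb genes. The KO mouse is lower in 4 of 4 pairs in both panels.

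The 11 stem cell markers summed to 854 to 1380 TPM in WT and 444 to 803 TPM in KO libraries. In KO mice 6.78% of all tested genes, and 12.9% of those of at least 15 TPM, were called lower. Of the 11 markers, 5 were called lower and 1 higher in KO mice. Among the lower ones were the receptor Tek (log2 change -1.20, SE 0.28), Fgd5 (-0.99, SE 0.27) and the transcription factor Mecom (-0.85, SE 0.21), and Slamf1 was higher (0.84, SE 0.22). Of the markers of the gate, Kit and Flt3 were lower and Ly6a higher in KO mice. Erythroid markers were lower too, in 6 of 7 genes (summed TPM 268 to 1272 in WT and 88.1 to 602 in KO libraries), and mast cell markers in 3 of 4 (46.7 to 117 and 31.9 to 123 TPM). The part of the cell makeup in the Hoxb5 values was not tested.

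The other members did not pass the test by genotype. Hoxb6 was at 0.617 to 3.13 TPM in WT and 0.393 to 1.68 TPM in KO libraries (log2 change -0.47, SE 0.39, adjusted p = 0.45) and Hoxb7 at 0.159 to 1.53 and 0.294 to 0.720 TPM (-0.65, SE 0.49, adjusted p = 0.41). In both old litters the KO mouse was below its littermate for either gene, with ratios of 0.537 and 0.376 for Hoxb6 and 0.589 and 0.472 for Hoxb7. In the young litters the ratios were 1.38 and 0.510 for Hoxb6 and 1.85 and 1.12 for Hoxb7. Hoxb3 was lower in the KO mouse of 4 of 4 litters, with ratios of 0.585 to 0.881, but its log2 change of -0.56 (SE 0.37, adjusted p = 0.34) did not pass.

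Hoxb2 had a log2 change of 0.36 (SE 0.24, adjusted p = 0.34), with KO to WT ratios above 1 in both litters of batch 1 (1.58 and 1.42) and below 1 in both of batch 2 (0.882 and 0.918). Hoxb1 (0.65, SE 0.41, adjusted p = 0.32), Hoxb4 (0.39, SE 0.40, adjusted p = 0.55) and Hoxb9 (0.42, SE 0.63, adjusted p = 0.69) had positive estimates. For comparison, genes under 1 TPM had a median log2 change of 0.68 between KO and WT mice.

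Within 1 age or 1 genotype, with 2 mice against 2, no member was called by edgeR. The shares of all tested genes called were 0.0626% for KO against WT in young mice, 0.65% for KO against WT in old mice, 0.0861% for old against young in WT mice and 0.0861% for old against young in KO mice. Only 0.00391% of genes (1 of 25543) passed for the interaction of genotype and age. DESeq2 called Hoxb6 in WT mice and Hoxb2 in KO mice for old against young, and no member in the other 3 comparisons. By DESeq2, 1.45% of all genes were called in WT and 12.9% in KO mice, so that 1 of 8 in KO mice is near the share over all genes. These comparisons share libraries with each other and with those above.

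The values within groups lay on the same side as those over all mice for the genes called with age. Hoxb7 had a log2 change of 2.29 (SE 0.78) in WT and 2.13 (SE 0.80) in KO mice, Hoxb2 of 0.79 (SE 0.35) and 0.97 (SE 0.35), and Hoxb6 of 1.98 (SE 0.57) and 1.21 (SE 0.56). For Hoxb6 the interaction was -0.77 (SE 0.78, adjusted p = 1 by edgeR). Hoxb5 in KO against WT mice was at -1.15 (SE 0.44) in young and -0.77 (SE 0.44) in old mice, and its interaction was 0.38 (SE 0.61, adjusted p = 1). The number of members with an unadjusted interaction p under 0.05 was 0.

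The other genes annotated between Hoxb13 and Hoxb1 were low or absent. Hoxb5os, which runs antisense from Hoxb5 towards Hoxb7, was at 2.59 to 6.42 TPM, with log2 changes of 0.30 with age (SE 0.38, adjusted p = 0.57) and -0.15 with genotype (SE 0.38, adjusted p = 0.82). The lincRNA Gm53, beyond Hoxb9, was at 0.153 to 0.433 TPM in young and 0.604 to 0.803 TPM in old libraries, without overlap (log2 change 1.24, SE 0.41, adjusted p = 0.061). Gm11536 and the pseudogene Gm11539 had at most 0.842 TPM. The microRNA gene Mir10a had 1 estimated count in 2 libraries, and Mir196a-1, Gm27898 and Gm27605 had none; polyA libraries of long RNA do not measure mature microRNAs.

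The protein-coding genes that flank the cluster did not move as 1 block with it. On the side of Hoxb1, Skap1, an adaptor protein of T cells, was higher in old mice (0.499 to 2.20 TPM in young and 2.81 to 5.21 TPM in old libraries; log2 change 1.36, SE 0.37, adjusted p = 0.037). Beyond Hoxb13, Ube2z, a ubiquitin-conjugating enzyme, was lower in old mice (log2 change -0.67, SE 0.14, adjusted p = 0.022). Atp5g1, a subunit of the mitochondrial ATP synthase, was higher in KO mice (0.72, SE 0.18, adjusted p = 0.033). Snf8, Calcoco2 and Ttll6 passed in neither comparison.

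The other Hox clusters were set beside Hoxb. Of 9 tested Hoxa genes, 2 were lower in KO mice: Hoxa9, at 58.4 and 78.8 TPM in the old KO libraries and 127 to 189 TPM in the others, fell by 0.70 on the log2 scale (SE 0.16), and Hoxa10 by 0.61 (SE 0.17). With age, Hoxa9 (-0.63) and Hoxa3 (-0.79) were lower and 1 Hoxa gene was higher. Of all tested genes, 6.78% were called lower in KO mice, 9.61% lower with age and 4.34% higher with age. Among genes of at least 15 TPM, 12.9% were called lower in KO mice and 22.1% with age. The median log2 change with age was -0.49 for the Hoxa genes and 0.90 for the Hoxb genes. It was higher still for the tested Hoxc genes (1.68) and Hoxd genes (1.52). These 2 clusters were low, at 0.7 to 3.42 TPM summed for Hoxc and 0.13 to 0.9 TPM for Hoxd. Over all tested genes with a mean under 1 TPM the median was 1.20, and 5.43% were called higher with age. Of 7 tested Hoxc genes none was called by genotype and 2 were higher with age, Hoxc9 (0.149 to 0.307 TPM in young, 0.409 to 1.38 TPM in old libraries; log2 change 1.61, SE 0.39) and Hoxc5 (at most 1 estimated count in the young and 8.5 to 16 in the old libraries, so that no fold is given). None of the 3 tested Hoxd genes was called in either comparison.

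The partners and regulators of Hox proteins were taken as lists by their known role. The share of all tested genes called lower was 6.78% in KO mice and 9.61% with age. Among genes of at least 15 TPM it was 12.9% in KO mice and 22.1% with age. Of 9 cofactors, Pbx3 (-2.66, SE 0.21; 6.64 to 14.9 TPM in WT and 1.24 to 2.41 TPM in KO libraries) and Meis3 (-1.87, SE 0.37) were lower in KO mice, and Pknox1 was lower with age (-0.69, SE 0.15). Of 19 tested activators of Hox clusters, 1 was higher (Dpy30, 0.63) and 3 lower (Rarb, -1.58; Dot1l, -0.55; Men1, -0.51) in KO mice. With age 7 of the 19 were lower and none higher, the largest Rara (-0.83), Brpf1 (-0.79), Mllt1 (-0.73) and Dot1l (-0.72).

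By genotype, 6.78% of all tested genes and 12.9% of those of at least 15 TPM were called lower in KO mice. Among 21 Polycomb and Asxl genes, 8 were lower in KO mice, Asxl2 among them, and 1 was higher. The largest were Asxl2 (-2.10), Asxl3 (1.93, at no more than 0.696 TPM), Cbx7 (-0.94) and Ezh1 (-0.90). With age 9 were lower and none higher, the largest Cbx2 (-1.01), Bap1 (-0.79), Phc1 (-0.71) and Cbx7 (-0.70). The share called lower with age was 9.61% of all tested genes and 22.1% of those of at least 15 TPM. Of 8 genes for Ctcf and cohesin, Rad21 was lower with age (-0.73) and none was called by genotype.

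The genes most like the Hoxb pattern were found by the root mean square difference of centred log2(TPM + 1) over the 8 libraries, among 11060 genes with a mean of at least 5 TPM. For the summed Hoxb TPM they were Gata3 (0.158), Efna1 (0.164), Cngb1 (0.195), Ldhd (0.201) and Tspan17 (0.213), beside an SD of the pattern itself of 0.492. For Hoxb2 they were Gm28809 (0.152), Apoe (0.164), Zbp1 (0.184), Mrpl52 (0.188) and Gm5148 (0.189). For Hoxb5 they were Tgm2 (0.198), Cracr2b (0.207), Ndrg1 (0.230), Copz2 (0.234) and Art4 (0.237). Ndrg1, for example, had means of 92.2 TPM in young WT, 56.1 in young KO, 144 in old WT and 86.5 in old KO mice. Hoxb5 had 4.67, 1.91, 6.35 and 3.19 TPM in the same order. Ndrg1 was picked for its likeness to Hoxb5 over these libraries, so the shared order is no separate result.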

How the data were processed

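RNA of sorted LSK cells was made into polyA libraries with the SMART-Seq v4 kit, per the labels' protocols. The authors deposited 1 kallisto table per library (mm10, per the submitters' processing notes; version and index not given in the sources used here) with estimated counts and TPM per transcript, and the lengths and effective lengths, per the file headers. The notes also name DESeq2. Estimated counts and TPM were summed per gene with GENCODE vM21, which matched 114200 of 115088 transcripts; the rest held 0.26% to 0.47% of counts.

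Summed estimated counts were rounded and tested with edgeR 4.0.16 (quasi-likelihood, TMM scaling, filterByExpr with a minimum count of 10) in R 4.3.3, with genotype, age and batch in 1 model, or the 4 groups and batch for simple effects and the interaction. Residual degrees of freedom were 4 and 3. Hoxb8 did not pass the filter. DESeq2 1.42.0 and limma 3.58.1 were alternatives. TPM gives levels per length. SD is between mice.

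The members and gene lists were chosen with earlier results of these data known. Named were all cluster genes and neighbours, and list members with an adjusted p under 0.05, at most 4 a list and comparison by size of change; some genes and sequences are not reported here. Litters pair the mice per the labels. Littermates' deviations from their group means correlated at 0.099 (young) and 0.091 (old) over genes. Within an age the litters were also the batches, so these values cannot tell litter from batch. Libraries of the same group differed far beyond counting noise (chi-square per degree of freedom 69.7 to 205.9).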

Additional observations from a re-analysis of the deposited data

Results flagged for a closer look

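Among 36 sets of 4 libraries (9 genes in WT, KO, young and old libraries), 2 held a library far from the other 3. That is near the share that chance alone gives, about 1 in 20. Each set also mixes ages or genotypes. Both were the old WT library of batch 2. Hoxb3 was at 1.151 TPM there and at 0.639 to 0.726 TPM in the other old libraries. Hoxb9 was at 0.305 TPM there (27.9 estimated counts) and at 0.081 to 0.108 TPM (6 to 12 counts) in the other WT libraries. In that library Hoxb9-201 was at 0.241 TPM, and it was at 0 in the other 3 WT libraries. Neither gene was called in a comparison.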

How the results depend on the processing

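For old against young, 3 members were called with DESeq2 (26.1% of all genes called), with DESeq2 size factors in edgeR (14.5%) and with no filter on low counts (15.3%). With an effective length offset 1 was called (Hoxb6, with 10.7% of all genes called). None (0) was called with the length trend removed, with no batch term, in 3 limma fits on log2(TPM + 1) or log2(TPM + 0.1), in batch 1 alone, without litter 1, or with the number of detected genes as a covariate, which was added after the data had been seen. Over all genes, 0.00467% to 0.818% were called in these fits, except in batch 1 alone (9.46%), against 13.9% as reported; the limma fits with a filter held 3 members, Hoxb7 not among them. Batch 2 alone gave 2. Leaving out 1 library gave 0 to 3. For KO against WT, 1 (Hoxb5) was called with no filter (10% of all genes called) and with DESeq2 (20.7%). Limma over genes of at least 1 TPM also called it, on log2(TPM + 1) (21.1%) and on log2(TPM + 0.1) (21.3%). Hoxb5 was called in batch 2 alone too, with the share over all genes given above. Leaving out 1 library gave 0 to 1. With litter as a replicate block 0 were called (Hoxb5 -0.97, adjusted p = 0.097); the block changed no call for a member. For old against young within a genotype, DESeq2 called 1 in WT and 1 in KO mice, edgeR 0. The cause of these differences was not tested; fits on part of the libraries have fewer samples. Over all mice, the sign of an estimate changed in 5 cases, all for genes not called: by genotype Hoxb2 in batch 2 alone (-0.137) and Hoxb6 in batch 1 alone (0.032) and with the covariate (0.055), and with age Hoxb3 in batch 2 alone (-0.104) and without litter 1 (-0.024). Within 1 age or genotype, leaving out a library also changed signs. The order of levels gave 4 separated steps in every alternative. Depth limits Hoxb8 (0 to 8 counts), Hoxb7 and Hoxb9 most.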
